A study of Homo sapiens with 8 samples.

Results

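The genes described here are the MYC and MAX network, 10 genes taken by name: MYC, MYCN, MAX, MXD1, MXD3, MXD4, MXI1, MNT, MLX and MGA. Each of the 10 was represented by 1 probe set with a single gene symbol, among 18404 genes tested. They were measured in HepG2, an established human liver tumour line that divides in culture and keeps many hepatocyte functions, on 8 single-channel whole-transcript arrays. Of the 8 cultures, 4 spent 60 minutes in 0.5 mM H2O2 (hydrogen peroxide), meant to drive them into senescence, a lasting arrest of division. The other 4 cultures, called untreated here, received medium alone. All were grown in the same serum-containing medium, and per the labels the senescent phenotype was tested 5 days later, while the time of RNA extraction is not stated. The submitters describe the cultures as biological replicates. All cells come from 1 tumour line, so the spread between arrays is that of cultures, not of people.

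The network is a set of DNA-binding proteins that share the basic helix-loop-helix leucine zipper fold and act in pairs. MYC and MYCN pair with MAX, bind the E-box CACGTG and raise the transcription of genes for growth, ribosomes and metabolism. The MXD proteins (MXD1, MXI1, MXD3 and MXD4) and MNT pair with the same MAX and bring SIN3 and histone deacetylase corepressors to E-boxes, while MGA ties MAX to a Polycomb complex, PRC1.6. MLX resembles MAX and pairs with the glucose-responsive factors MondoA (MLXIP) and ChREBP (MLXIPL) and with some MXD proteins. In liver cells the MYC arm is known for regrowth and tumour formation and the ChREBP arm for turning sugar into fat.

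In H2O2-treated cells MYC mRNA was lower and that of its antagonist MXD1 was higher, each by about the same factor, while MXI1, a close relative of MXD1, fell by about as much as MYC. MXD4 was also higher and MXD3 lower, by smaller amounts. The common partner MAX, its relative MLX, and MNT, MGA and MYCN did not pass the test. In all, 2 of the 10 members rose and 3 fell by limma at a Benjamini-Hochberg adjusted p under 0.05. Over all genes tested 19.2% were called higher and 14.8% lower, or 34.0% in either direction. A call in either direction is thus common in these data. That background includes 7154 dim genes, with means below the median of all probe sets, and no member is among them. With dim genes left out, 3141 of 11250 genes were called higher and 2575 lower, a larger share in each direction. All values below are log2 expression values. A level is a group mean ± SD over 4 arrays, and a difference is treated minus untreated ± its standard error. A log2 value depends on the probes of a gene, so an order of levels between genes is not read from these values.

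MYC, the E-box activator, read 9.85, 9.95, 10.04 and 9.91 in the untreated cultures and 9.45, 9.42, 9.38 and 9.39 in the treated ones, here and below in the order of their replicate numbers. Every treated array lay below every untreated array, and the treated arrays lay closer together than the untreated ones. The mean went from 9.94 ± 0.079 to 9.41 ± 0.035, a fall by 0.53 ± 0.065 on the log2 scale, or 1.44-fold (95% interval -0.67 to -0.39, limma adjusted p = 2.36e-05). Among all genes, 11.0% differed by a larger amount in either direction. In bulk RNA, fewer cells expressing a gene and less of its RNA per cell cannot be told apart. MYCN, the paralog best known from neural and embryonic tissue, read 6.98, 7.22, 6.68 and 6.89 in untreated cells and 6.89, 6.74, 7.08 and 7.06 in treated cells. These ranges overlapped and lay around the median of all probe sets, 6.89, where expression cannot be told from background without detection calls. Its difference was 0.0013 ± 0.11 (95% interval -0.23 to 0.24, limma adjusted p = 0.995), with a sign that changed between normalizations.

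MAX is the common partner of MYC, the MXD proteins, MNT and MGA. It read 8.10, 8.14, 8.04 and 8.15 in untreated cells and 8.25, 8.20, 8.11 and 8.13 in treated cells. The groups overlapped, at a difference of 0.066 ± 0.065 (limma adjusted p = 0.492). Its 95% interval, -0.075 to 0.21, does not reach the size of the changes of MYC, MXD1 or MXI1.

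**Figure D1:**
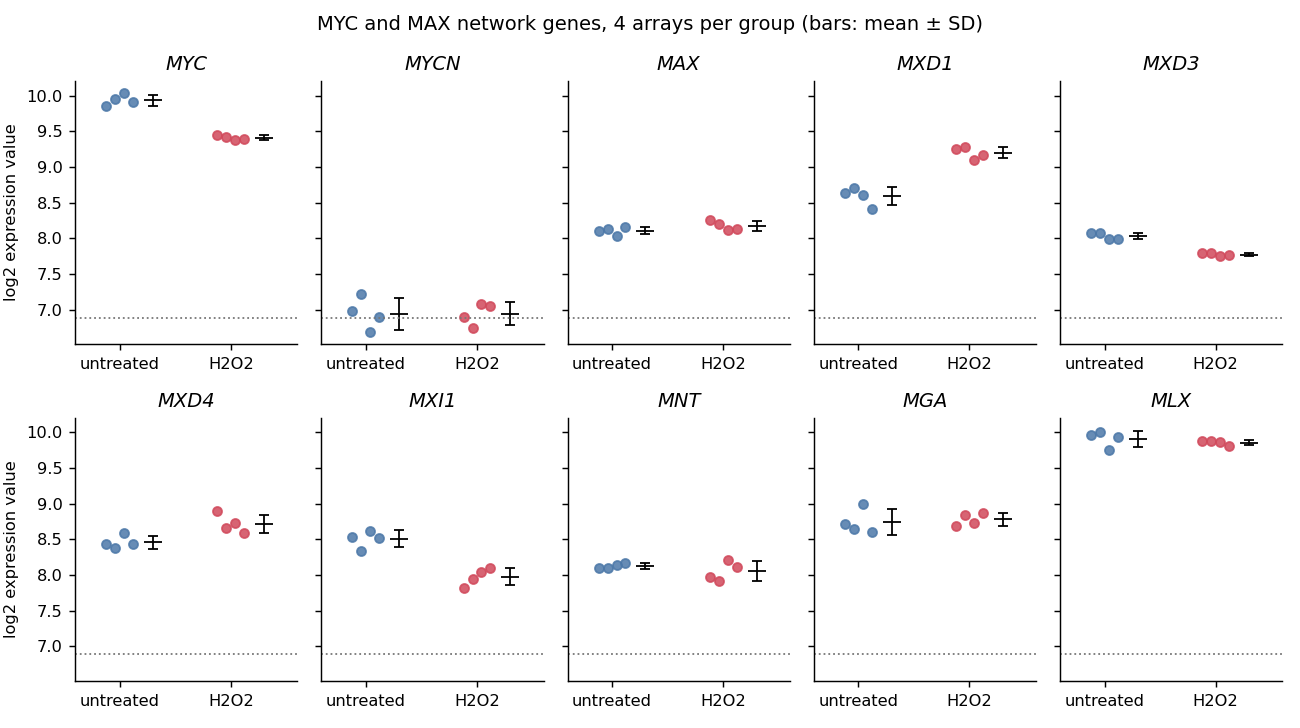
Log2 expression value (y axis) of each of the 10 members on each array (points), for 4 untreated and 4 H2O2 cultures, with the group mean ± SD beside the points and the median of all probe sets as a dotted line. The groups separate for MYC, MXD1, MXD3, MXD4 and MXI1 and overlap for MYCN, MAX, MNT, MGA and MLX.

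Of the 4 MXD genes, which encode the E-box repressors, 2 rose and 2 fell. MXD1, the founding member (MAD1), known to accumulate as cells leave the cycle and differentiate, read 8.64, 8.70, 8.60 and 8.41 in untreated cells and 9.25, 9.29, 9.10 and 9.17 in treated cells. The lowest treated array lay well above the highest untreated one. MXD1 rose by 0.61 ± 0.077, or 1.53-fold (95% interval 0.45 to 0.78, limma adjusted p = 2.80e-05), the largest difference among the members, which 8.57% of all genes exceeded. MXI1, also called MXD2, a repressor of the same build, went the other way. It read 8.54, 8.34, 8.62 and 8.53 in untreated cells against 7.82, 7.94, 8.04 and 8.10 in treated cells, again with no overlap. It fell by 0.53 ± 0.082, or 1.44-fold (95% interval -0.71 to -0.35, limma adjusted p = 0.000173).

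MXD3, the MXD protein known to be made in dividing cells during S phase, read 8.07, 8.08, 7.985 and 7.996 in untreated cells and 7.79, 7.79, 7.75 and 7.76 in treated cells. Its treated arrays were the closest together of any member, and the groups did not overlap. MXD3 fell by 0.26 ± 0.061 (95% interval -0.39 to -0.13, limma adjusted p = 0.00438). MXD4, found mostly in non-dividing, differentiated cells, read 8.43, 8.38, 8.59 and 8.44 in untreated cells and 8.89, 8.66, 8.73 and 8.60 in treated cells. The highest untreated array, 8.59, nearly met the lowest treated one, 8.60. MXD4 rose by 0.26 ± 0.079 (95% interval 0.092 to 0.43, limma adjusted p = 0.0193). This call rested on single arrays: it was lost without untreated replicate 1 (0.25, adjusted p = 0.0524), untreated replicate 2 (0.23, adjusted p = 0.0570) or H2O2 replicate 1 (0.20, adjusted p = 0.0743). The 5 called members were also the 5 whose groups did not overlap, 2 upward and 3 downward. Over all genes 18.9% separated upward and 14.8% downward in this way, or 33.7% in either direction.

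MNT, the widely expressed MAX partner that represses in dividing and resting cells alike, read 8.09, 8.10, 8.14 and 8.17 in untreated cells and 7.97, 7.92, 8.22 and 8.12 in treated cells. The treated arrays spread on both sides of the untreated ones (-0.071 ± 0.075, limma adjusted p = 0.528). MGA is a large protein with a T-box domain as well as an E-box-binding domain. It read 8.71, 8.65, 9.003 and 8.60 in untreated cells and 8.68, 8.85, 8.72 and 8.87 in treated cells. Its highest value was that of untreated replicate 3, and the difference was 0.039 ± 0.089 (limma adjusted p = 0.787). MLX read 9.96, 10.00, 9.76 and 9.93 in untreated cells and 9.88, 9.88, 9.86 and 9.81 in treated cells. The treated values lay inside the untreated range, at -0.054 ± 0.070 (limma adjusted p = 0.613). The 95% intervals of these genes ran from -0.23 to 0.092 for MNT, -0.15 to 0.23 for MGA and -0.21 to 0.097 for MLX, so changes of the size seen for MYC and MXD1 lie outside them.

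Further factors of the network outside the 10 members were taken from a fixed list of 4. Both large partners of MLX changed, in opposite directions. MLXIP, which encodes MondoA, read 8.43, 8.42, 8.63 and 8.64 in untreated cells and 8.96, 8.86, 9.17 and 9.07 in treated cells, and rose by 0.49 ± 0.085 (limma adjusted p = 0.000456). MLXIPL, which encodes ChREBP, read 9.78, 9.88, 9.78 and 10.01 in untreated cells and 9.37, 9.40, 9.28 and 9.25 in treated cells, and fell by 0.54 ± 0.073 (limma adjusted p = 5.61e-05). The groups of both genes were fully apart. MYCL, another MYC paralog, fell by 0.24 ± 0.068 (limma adjusted p = 0.0146) at levels near the array median, 6.95 ± 0.077 against 6.71 ± 0.065. ZBTB17, which encodes MIZ1, the zinc finger factor through which MYC represses, gave 0.17 ± 0.064 (limma adjusted p = 0.0526). Its groups did not overlap, and it passed when dim genes were left out (adjusted p = 0.0262) and with array weights (adjusted p = 0.0311). ZBTB17 did not pass in the remaining settings (limma adjusted p up to 0.113) or without any single array (limma adjusted p from 0.0556 to 0.130).

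**Figure D2:**
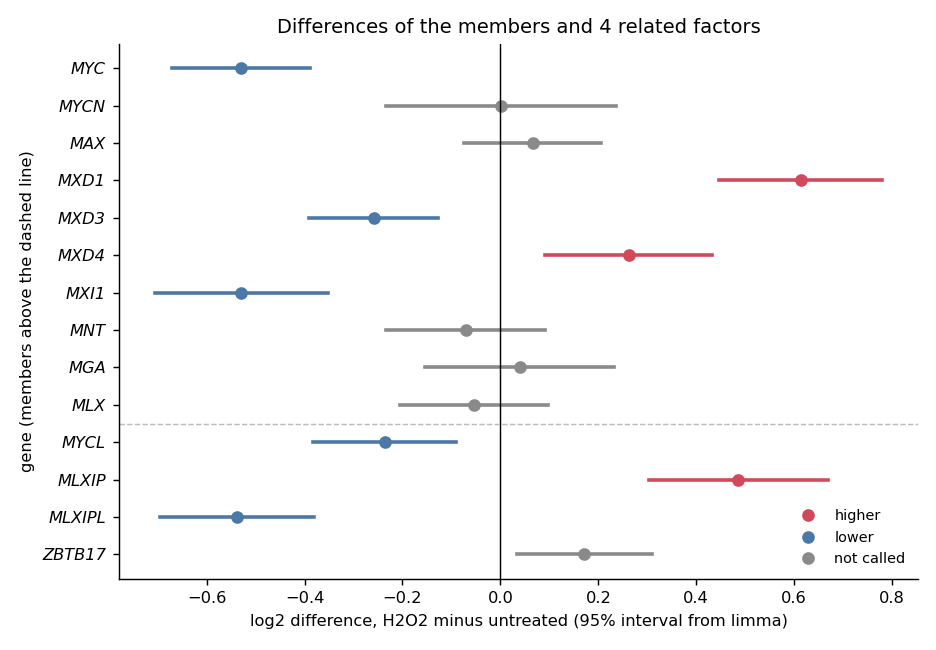
Log2 difference, H2O2 minus untreated (x axis), with its 95% interval from limma for the 10 members (above the dashed line) and 4 related factors (below it), coloured by call. MYC, MXI1 and MLXIPL lie near -0.53, MXD1 at 0.61 and MLXIP at 0.49, and the intervals of MYCN, MAX, MNT, MGA and MLX cross 0.

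**Figure D3:**
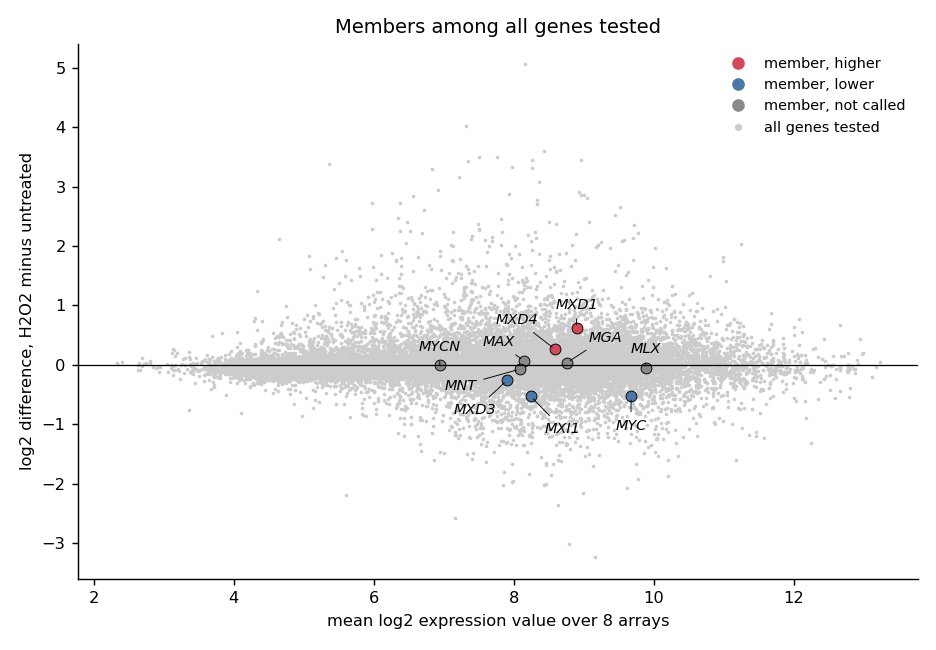
Log2 difference, H2O2 minus untreated (y axis), against the mean log2 value over the 8 arrays (x axis) for all 18404 genes tested (grey) and the 10 members (large points, coloured by call). The members lie in the body of the distribution, between -0.53 for MYC and 0.61 for MXD1, and no member has a mean under the median of all probe sets, 6.89.

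The sequence that the network's dimers read was looked up in RefSeq promoter windows of assembly GRCh38.p14, from 250 bases before to 50 after each annotated start. The letters searched were CACGTG, which reads the same on both strands. Entries were found for 9 of the 10 members (14 windows), all but MYC, and 3 of these 9 genes held the hexamer: MXD4, MNT and MLX. Over the 14230 tested genes with an entry, 10.9% held it in any window, and over all 27305 genes with an entry 8.77% did. The windows of MXD1, MXI1 and MXD3 did not contain these letters. The sites are shown because they hold the letters that the network's own dimers are known to bind. They are given 5′ to 3′ on the gene's strand with the hexamer in capitals: MXD4 (chr4:2262332-2262357, minus strand, hexamer from -238 relative to the start), MNT (chr17:2401238-2401263, minus strand, from -193) and MLX (chr17:42567040-42567065, plus strand, from -50).
MXD4: gccgggccacCACGTGctgttgctaa
MNT: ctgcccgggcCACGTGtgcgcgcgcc
MLX: gggcgcgggtCACGTGggcacgccac
The 3 genes differ in their response: MXD4 rose, whereas MNT (-0.071) and MLX (-0.054) were not called. A match describes the letters only, and binding was not measured.

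Genes on which MYC and MAX are known to act were then read from lists fixed by name. Of 37 measured growth targets that MYC activates, 15 fell, 2 rose and 20 were not called, with a median difference of -0.13 beside -0.022 over all genes. The lower share, 15 of 37, stands against 14.8% of all genes. Only 1 of the 37 had a mean below the array median, and with dim genes left out the background was 2575 of 11250 genes lower. SHMT2, the mitochondrial enzyme that feeds serine carbon into nucleotide synthesis, read 11.64, 11.59, 11.64 and 11.51 in untreated cells and 10.88, 10.89, 10.86 and 10.80 in treated cells, and fell by 0.74 ± 0.063 (limma adjusted p = 8.84e-07). CDC25A, the phosphatase that frees cyclin-dependent kinases for S phase, fell by 0.70 ± 0.11, with treated values from 7.26 to 7.83 below untreated values from 8.09 to 8.32. FBL, the nucleolar methyltransferase fibrillarin, fell by 0.57 ± 0.065, from 11.43 ± 0.074 to 10.85 ± 0.044.

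The other targets that fell were SHMT1, ENO1, LDHA, NPM1, PRMT1, TFRC, PPAT, TERT, TFAM, NCL, PRPS2 and IMPDH2, at differences between -0.51 and -0.23. They include the glycolytic enzymes ENO1 and LDHA, the nucleolar proteins NPM1 and NCL and the nucleotide synthesis enzymes PPAT, PRPS2 and IMPDH2. Several targets often used as readouts of MYC were not called, among them ODC1, the polyamine synthesis enzyme (-0.13 ± 0.082, limma adjusted p = 0.255), and CDK4, the G1 kinase (0.047 ± 0.073, limma adjusted p = 0.677). CCND2, which encodes cyclin D2, went the other way and read 6.56, 6.41, 6.78 and 6.68 in untreated cells and 8.87, 8.71, 8.68 and 8.80 in treated cells. It rose by 2.16 ± 0.085, or 4.46-fold (limma adjusted p = 4.79e-10), from a level below the array median, which limits how exactly the fold is known. The other rise was EIF2S1, a translation initiation factor subunit, at 0.32 ± 0.082.

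Of the activated targets, 31 had a promoter entry and 12 of them, or 38.7%, held CACGTG, beside 10.9% of the tested genes. Among those that fell it was present in 4 of 13, or 30.8%, and among those not called in 8 of 17, or 47.1%. The 8 include HSPD1 and HSPE1, which share the same site on opposite strands and are counted as separate genes. The hexamer was thus found in the windows of targets that fell and of targets that were not called. For the targets that fell the sites are FBL (chr19:39846358-39846383, minus strand, from position 7 of the transcript), PPAT (chr4:56435782-56435807, minus strand, from -182), TERT (chr5:1295216-1295241, minus strand, from -163) and LDHA with a pair of them (chr11:18394368-18394393 and chr11:18394466-18394491, plus strand, from -185 and -87). For comparison CDK4, not called, has 3 (chr12:57752511-57752536, chr12:57752491-57752516 and chr12:57752396-57752421, minus strand, from -216, -196 and -101).
FBL: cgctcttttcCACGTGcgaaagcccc
PPAT: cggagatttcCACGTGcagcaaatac
TERT: ccgcgcttccCACGTGgcggagggac
LDHA upstream: actcccagcgCACGTGgagcagtctg
LDHA downstream: gcccgactcaCACGTGggttcccgca
CDK4 first: gtcaagcggtCACGTGtgatagcaac
CDK4 second: agcaacagatCACGTGgctgccatcg
CDK4 last: gggtggcggtCACGTGcccagaacgt
PPAT, the first committed enzyme of purine synthesis, fell by 0.32 ± 0.085, and TERT, the telomerase reverse transcriptase, by 0.32 ± 0.070. LDHA, which makes lactate, fell by 0.40 ± 0.063. Both LDHA sites lie before the start, and their labels upstream and downstream give only their order.

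Targets that MYC is known to repress went both ways, with 7 of 18 measured genes higher and 7 lower, at a median of -0.083, beside 19.2% higher and 14.8% lower over all genes. The cyclin-dependent kinase inhibitors CDKN1A (p21, 2.36 ± 0.067) and CDKN2B (p15, 1.43 ± 0.078) rose. For CDKN1A the untreated arrays read 8.44 to 8.59 and the treated ones 10.83 to 10.99. THBS1, a secreted inhibitor of vessel growth, rose by 0.94 ± 0.076. NDRG1, a stress and hypoxia-induced gene (-1.21 ± 0.094), PDGFRB, a growth factor receptor (-1.15 ± 0.088), and CDKN1B, which encodes the inhibitor p27 (-0.81 ± 0.076), fell. The other rises were CCND1, GADD45A, RHOB and TGFBR2, and the other falls NDRG2, BTG1, CEBPA and CLU. CDKN1A and GADD45A are also p53 target genes, and NDRG1 also answers to hypoxia factors. What part MYC has in these differences was not tested.

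Of 19 targets of MLX with MondoA or ChREBP, 9 were lower and 3 higher, at a median of -0.15, beside 14.8% lower and 19.2% higher over all genes. G6PC1, the phosphatase that releases glucose from hepatocytes, read 10.51, 9.72, 10.60 and 10.38 in untreated cells and 7.37, 7.54, 7.09 and 7.13 in treated cells, and fell by 3.02 ± 0.16, or 8.10-fold (limma adjusted p = 8.99e-09). PNPLA3, a lipid droplet lipase (-1.14 ± 0.11), and KHK, which starts fructose breakdown (-1.10 ± 0.080), fell. So did PKLR, the liver pyruvate kinase and classic ChREBP target, at -0.71 ± 0.097, and the fat synthesis enzymes ELOVL6, SCD, FASN and ACACA, at differences between -0.89 and -0.34, and the factor KLF10 at -0.31. ARRDC4, an arrestin that limits glucose uptake and a classic MondoA target, rose by 1.34 ± 0.10, with untreated arrays from 7.23 to 7.68 and treated ones from 8.66 to 8.93. Its companion target TXNIP, which acts on glucose uptake in the same way, differed by 0.022 ± 0.097 (limma adjusted p = 0.895). TM6SF2, which acts in lipoprotein secretion (0.48 ± 0.070), and GPD1, a glycerol phosphate dehydrogenase (0.41 ± 0.11), rose. Of 14 targets in this list with a promoter entry, 3, or 21.4%, held CACGTG: ARRDC4, PKLR and KLF11, which was not called (0.0036). The sites of the called pair lie at chr15:97960483-97960508 on the plus strand (from -210) and chr1:155301620-155301645 on the minus strand (from -197), and these 2 genes changed in opposite directions.
ARRDC4: acggcctgtgCACGTGcacgccggag
PKLR: aatatctattCACGTGgatgaccaga
Beside this list, 6 of 10 hepatocyte markers also fell and TTR, the thyroid hormone carrier, was called higher, where 14.8% of all genes were lower and 19.2% higher. TF, transferrin (-0.90 ± 0.094), FGB, a fibrinogen chain (-0.71 ± 0.14), and AHSG, fetuin (-0.58 ± 0.081), fell most. The TTR call (0.26 ± 0.084) was lost without untreated replicate 3 (0.21), untreated replicate 4 (0.22), H2O2 replicate 1 (0.25) or H2O2 replicate 2 (0.23). The part of this shift in the MLX target values was not tested.

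**Figure D4:**
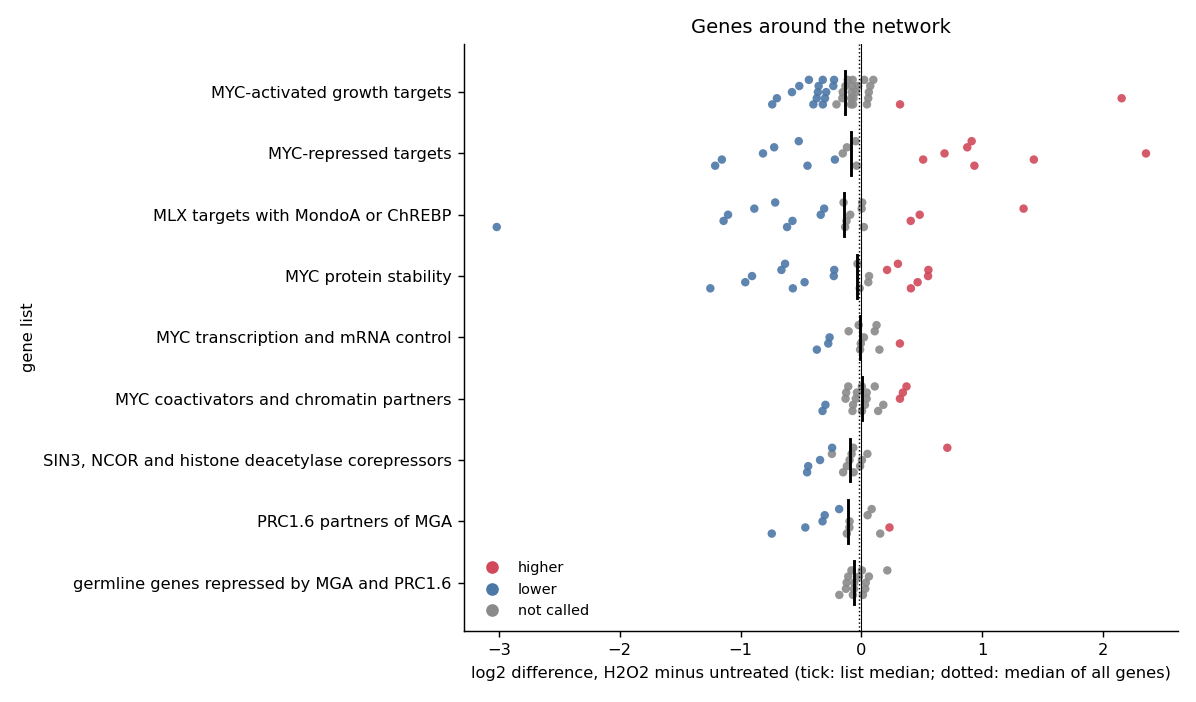
Log2 difference, H2O2 minus untreated (x axis), of each measured gene in 9 fixed lists around the network (y axis), coloured by limma call, with the list median as a tick and the median of all genes as a dotted line. MYC-activated targets lie mostly left of 0 with CCND2 alone beyond 2, MYC-repressed and MLX targets spread to both sides, and the germline list holds no called gene.

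Of 19 regulators of MYC protein stability, 9 were lower and 6 higher, at a median of -0.031, beside 14.8% lower and 19.2% higher over all genes. Among ligase genes, FBXW7, the ubiquitin ligase subunit that marks MYC for breakdown, read 6.73, 6.81, 6.86 and 6.76 in untreated cells and 7.25, 7.37, 7.23 and 7.53 in treated cells, and rose by 0.55 ± 0.077 (limma adjusted p = 7.08e-05). The untreated FBXW7 values all lay below the array median, which limits how exactly its rise is known. FBXO32, another ligase subunit, rose by 0.56 ± 0.096 with both group means below the array median, and the ligase TRIM32 by 0.47 ± 0.066. SKP2, a ligase subunit that targets both MYC and p27, fell by 1.25 ± 0.11, from 10.67 ± 0.093 to 9.42 ± 0.26. PLK1, a mitotic kinase, fell by 0.96 ± 0.095, and CIP2A, which blocks removal of a MYC phosphate, by 0.90 ± 0.14. The others that fell were USP37, AURKA, AXIN1, USP28, PPP2R5A and SET, and the others that rose GSK3B, PPP2CA and STUB1. PLK1, AURKA and SKP2 are also known to follow the cell cycle, and MYC protein was not measured.

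Of 12 factors that control MYC transcription or its mRNA, 3 were lower and 1 higher, beside 14.8% lower and 19.2% higher over all genes. In either direction, 4 of 12 were called beside 34.0% of all genes, a share near that background, which includes dim genes. FUBP1, which binds upstream of MYC to raise its transcription, fell by 0.37 ± 0.067. TCF7L2, a Wnt effector, gave -0.27 ± 0.080, a call lost without untreated replicate 4 (-0.23, limma adjusted p = 0.0563), and the mRNA-binding protein ELAVL1 fell by 0.26 ± 0.066. LEF1, another Wnt effector, rose by 0.32 ± 0.070 but at 6.03 ± 0.089 stayed under the array median, and without H2O2 replicate 1 the count of genes called higher was 2. Of 20 coactivators and chromatin partners of MYC 3 rose, 2 fell and 15 were not called, at a median of 0.0055, beside 19.2% higher and 14.8% lower over all genes, so this list was not called more often than genes at large. CDK9, the kinase that releases paused RNA polymerase (0.37 ± 0.069), SUPT5H, of the pausing and elongation factor DSIF (0.34 ± 0.068), and CTR9, of the elongation complex PAF1 (0.32 ± 0.069), rose. WDR5, a chromatin adaptor that holds MYC at its targets (-0.32 ± 0.073), and SMARCC1, of the SWI/SNF remodeller (-0.30 ± 0.081), fell.

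On the repressor side, 4 of 15 corepressor genes fell and 1 rose, at a median of -0.097, beside 14.8% lower and 19.2% higher over all genes. In either direction, the 5 called genes of 15 stand beside 34.0% of all genes, near that background, which includes dim genes. SIN3A, the scaffold that MXD proteins bind directly, read 9.22, 9.28, 9.41 and 9.25 in untreated cells and 8.84, 8.88, 8.76 and 8.88 in treated cells, and fell by 0.45 ± 0.068 (limma adjusted p = 0.000138). SAP30 (-0.44 ± 0.074) and ING1 (-0.34 ± 0.075), subunits of the same complex, fell, as did the histone-binding RBBP4 at -0.24, whereas BRMS1, a further subunit, rose by 0.71 ± 0.081. Of 12 PRC1.6 genes, which share WDR5, HDAC1 and HDAC2 with the lists above, 5 fell and 1 rose, at a median of -0.11, beside 14.8% lower and 19.2% higher over all genes. RYBP, a Polycomb subunit, fell by 0.74 ± 0.083, TFDP2, a dimer partner of E2F factors, by 0.46 ± 0.076, and WDR5 as given above. The count of lower genes stayed at 5 without untreated replicate 3 but was 3 without untreated replicate 2. It was 4 without any other single array and 4 with the replicate number as a block. RING1, the ubiquitin ligase, rose by 0.23 ± 0.061 with its brightest probe set but gave 0.039 (limma adjusted p = 0.752) as the mean of its probe sets. None of 15 germline genes that MGA and PRC1.6 are known to silence was called by limma, with 1 at an unadjusted p under 0.05. For 14 of these 15 the mean lay below the array median. Quantile normalization called 1 lower, and array weights called 1 higher and 1 lower.

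The genes whose pattern over the 8 arrays was most like that of MYC were PTBP1, CREB3L2 and FOXA2, at a Pearson's r of 0.997, 0.996 and 0.996. For MXD1 they were MTA2, AAGAB and TMT1B, at 0.997, 0.997 and 0.996. These are descriptions over 8 arrays that fall into 2 groups, so any gene with a tight difference of the same sign scores high. PTBP1, a splicing repressor, fell by 0.35 ± 0.063, CREB3L2, a membrane-bound transcription factor, by 0.49 ± 0.061, and FOXA2, a liver transcription factor, by 0.54 ± 0.067. MTA2, a subunit of the NuRD deacetylase complex, rose by 0.56 ± 0.071, AAGAB by 0.89 ± 0.10 and TMT1B by 0.62 ± 0.073.

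The arrays themselves were alike in level, with medians from 6.85 to 6.93. Estimated array weights were lowest for replicate 3 of each group, at 0.425 in untreated and 0.369 in H2O2 cells, and from 0.912 to 2.19 for the others; the calls of the 10 members were the same with these weights. All 10 hepatocyte markers had means above the array median, with ALB at 12.55 in untreated cells. Of 12 leukocyte, fibroblast and endothelial markers 10 had means below the array median, among them the leukocyte marker PTPRC and the fibroblast marker LUM. COL1A1 (0.41 ± 0.076) and CD14 (0.27 ± 0.064) rose, and CDH5 gave -0.25 ± 0.073, a call lost without untreated replicate 4 (-0.23) or H2O2 replicate 1 (-0.20).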

How the data were processed

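The data are 1 table of log2 expression values per probe set for 8 arrays, as deposited by the authors. The unit was read from the values. Probe summarization and array normalization are not given in the sources used here, and the submitters' processing notes name limma without a role or version. Of 32321 probe sets, the platform annotation gives 19158 a single symbol, 1388 several and 11775 none. Entrez identifiers of 19128 were found in RefSeq (GRCh38.p14) and changed 0 symbols. Where a gene had more than 1 such probe set (637 genes), the brightest on average was used, giving 18404 genes. No 2 arrays shared more than 0.00619% identical values.

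Groups come from the sample titles. A linear model with 1 mean per group was fitted in limma 3.58.1 (R 4.3.3) with empirical Bayes moderation and Benjamini-Hochberg adjustment over all genes, tested on simulated data first. Adjusted p-values are from this fit unless a setting is named. Promoter windows and figures used Python 3.11.15 with pandas 2.3.3 and matplotlib 3.10.9. No set test was run. Precision is limited by the number of arrays.

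The members and the gene lists were chosen with earlier results of these data known. The rule for naming genes takes all 10 members, 4 related factors, per list at most the 3 strongest called changes in each direction, and the 3 genes most correlated with MYC and with the member that changed most. Genes named beyond it (such as ODC1, CDK4, PPAT, TERT, LDHA, PKLR, TXNIP, RBBP4, and those given by name within a range) were picked with their values in view. Lists hold related factors, MYC-activated and MYC-repressed targets, MLX targets, MYC stability, MYC transcription and mRNA control, coactivators, corepressors, PRC1.6 partners, germline genes, and markers of hepatocytes and of other cells. Alternatives were the replicate number as a block, quantile normalization, median centring, leaving out dim genes, averaging probe sets, a trended robust prior, array weights and leaving out each array.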

Additional observations from a re-analysis of the deposited data

Results flagged for a closer look

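In 66 named genes and 2 groups each (132 sets of 4 arrays), 5 single arrays stood apart from the other 3 of their group by more than Dixon's 95% critical value, and chance flags about 1 in 20 such sets. None of the 5 concerns the 10 members. MYCL read 6.81 in H2O2 replicate 3 against 6.67 to 6.69 in the other treated arrays. SMARCC1 read 10.49 in untreated replicate 3 against 10.16 to 10.18, and PNPLA3 10.05 in the same array against 9.85 to 9.86. CIP2A read 8.57 in untreated replicate 2 against 8.19 to 8.23. LEF1 read 5.89 in H2O2 replicate 4 against 6.06 to 6.08.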

How the results depend on the processing

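The calls of MYC, MXD1, MXD3 and MXI1 were kept in all 15 alternatives, with MYC between -0.56 and -0.48 and MXD1 between 0.55 and 0.65. The count of members called higher ranged from 1 to 2 when single arrays were left out, and MXD4 alone lost its call. MYCN, never called, gave -0.034 after quantile normalization, -0.0020 after median centring and -0.085 with array weights, and -0.085 to 0.093 without single arrays. MGA gave -0.0070 to 0.13 without single arrays. With the replicate number as a block, 3288 genes rose and 2470 fell, against 3527 and 2732, and no call of a member changed. Same-numbered arrays did not deviate together (r = -0.068, 0.060, -0.25 and 0.094), within the range of differently numbered arrays (-0.26 to 0.19). These correlations cannot decide whether the cultures were paired by number. Array weights raised both counts, to 4262 higher and 4111 lower.

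For the lists, leaving out dim genes gave 2 related factors higher and 1 lower, 0 MYC control genes higher and 0 other-cell markers lower, with 11250 genes tested. Array weights gave 2 related factors higher, and for germline genes 1 higher and 1 lower. Quantile normalization gave 1 germline gene lower, and averaging probe sets left 0 PRC1.6 genes higher. Without single arrays, PRC1.6 genes lower ranged from 3 to 5, MYC control genes higher from 1 to 2, hepatocyte markers higher from 0 to 1 and other-cell markers lower from 0 to 1. The cause was not tested unless given.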
